A study of Mus musculus with 16 samples.

Results

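Myeloid cells that carried Nos2 transcripts were examined in immune cells from subcutaneous mouse melanomas. Nos2 encodes inducible nitric oxide synthase. A cell barcode was a member when it held at least 2 unique molecular identifiers (UMIs, each counted as 1 captured transcript) of Nos2, at least 3 of the myeloid lysozyme Lyz2, none of the T cell receptor subunits Cd3d, Cd3e and Cd3g and none of Ccr7, at any level of the complement genes C1qa, C1qb and C1qc. Barcodes had first to hold at least 200 genes and at most 10% mitochondrial UMIs. Of 116552 deposited barcodes 99357 passed that filter, 45056 passed the gate on Lyz2, Cd3 and Ccr7 (called the myeloid gate here), and 3914 were members, which is 3.94% of the passing barcodes and 8.69% of the myeloid gate. Because Nos2, Lyz2, Cd3d, Cd3e, Cd3g and Ccr7 chose the cells, their levels are given as a description and were not tested.

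C57BL/6J mice carried tumours grown from 1000000 cells of the Bro4.1 B16 melanoma line, either control or B2m-null, and were injected intraperitoneally with 100 mcg of anti-CD40 antibody, an activating antibody, or with a rat IgG2a isotype control, on days 6, 9 and 12. Tumours were taken on day 14, CD45-positive cells were enriched on magnetic beads, and each mouse was marked with 1 hashtag antibody. Mice of the same group were pooled on each Chromium lane of the 3′ version 3 chemistry. The 4 groups were control tumours with isotype antibody (2 lanes, 5 mice), control tumours with anti-CD40 (2 lanes that are technical replicates of 1 pool, 2 mice), B2m-null tumours with isotype antibody (2 lanes, 5 mice) and B2m-null tumours with anti-CD40 (2 lanes, 4 mice). The mice were counted by the hashtags found in each lane's file, 3 in the first lane of each isotype group and 2 in the other 6 lanes, whereas the labels list 3 hashtags for every lane, so each n of mice and each test over mice rests on the files' hashtags. For the second control anti-CD40 lane the labels list a barcode file of a name not used here. The matrix they list was used with the barcode list named for that lane, and both hold 14999 barcodes. The sample labels attach the B2m loss to the mouse, whereas the series' design text attaches it to the implanted cells, and the latter was followed. B2m, the light chain of MHC class I, was read at 2870 to 6180 counts per 1000000 UMIs (CPM) in the members of every mouse with at least 20 of them, so the host cells expressed it in all 4 groups. The age of the mice is not given in the sources used here. Each lane held 1 group, so a difference between groups is also one between lanes. The spread between pools can be seen within a group, except in control tumours with anti-CD40, where pool and group cannot be told apart.

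Macrophages and monocytes transcribe Nos2 after interferon-gamma and microbial or tumour necrosis factor signals, and the enzyme makes nitric oxide from arginine. The same arginine can instead be split by arginase to ornithine and urea, so Nos2 and Arg1 are often read as markers of opposed states. In tumours, nitric oxide from myeloid cells has been linked both to tumour cell killing and to restraint of T cells, and CD40 is a receptor on macrophages, dendritic cells and B cells whose ligation activates them.

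The 8 lanes held 46.0 to 99.3 times 1000000 gene UMIs each. Hashtags assigned 46.7% to 86.3% of the deposited barcodes of a lane to 1 of 16 mice, and 2959 of the 3914 members were assigned. Members were deeper than the rest of the gate: their median was 5375 to 10763.5 UMIs by lane, against 2316 to 6606 in barcodes of the myeloid gate without Nos2. Hashtag doublets made up 3.51% to 25.5% of the members and 2.68% to 15.4% of the Nos2-free barcodes of a lane. They were more frequent among members in every lane but the second control anti-CD40 lane (3.51% against 3.57%). Among barcodes assigned to 1 hashtag the gene comparison with Nos2-free barcodes given below made 4296 calls, 3984 of them shared with all barcodes. Doublets of cells from 1 mouse carry 1 hashtag and were not removed by this. T cells (at least 2 Cd3 UMIs and no Lyz2), which should lack Nos2, held at least 2 Nos2 UMIs in 0% to 0.39% of barcodes at a median of 1553 to 2848 UMIs, against 0.853% to 20.1% members in the gate, and it stayed below the members' share in each lane. No T cell held 2 Nos2 UMIs in the 2 B2m-null isotype lanes (0 of 356 and 0 of 774), which allows up to 0.843% and 0.388%, the first close to the 0.853% of members in that lane. Between 41 and 92 barcode sequences were shared by any pair of lanes, 70 by the technical pair, and 6 members carried a barcode that was also a member in another lane.

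The label of monocytes and macrophages was checked against marker genes. Adgre1, which encodes F4/80, was at 210 to 370 CPM over the 7 pools, and the lysosomal protein gene Cd68 averaged 554 ± 122 CPM (SD, n = 7). The summed C1q UMIs were at least 5 in 2850 members (72.8%), 2 to 4 in 314, and at most 1 in 750 (19.2%), against 65.5% and 25.9% with the high and the low level in the whole myeloid gate. These cut-offs are on raw UMIs and members were deeper, so the shares are not matched for depth. Per UMI, C1qa was lower in members than in Nos2-free barcodes in the comparison below, a call lost in 6 alternatives. C1qb and C1qc did not pass there. Most members held at least 5 C1q UMIs, and the monocyte side of the label rests on the smaller C1q-low share. The part of C1q carried over from other cells was not tested. Ly6c2, the Ly6C antigen of classical monocytes, was at 16.7 to 205 CPM in members, against 382 to 1090 CPM in barcodes of the gate with Chil3 or Vcan and without C1q. The summed levels of marker lists of other cell types varied. The summed level of 15 T and NK cell genes was 19.5 to 84.6 CPM in members and 3210 to 9070 CPM in the T cells of the same lanes. The 10 neutrophil genes summed to 57.9 to 385 CPM in members and 95.6 to 773 CPM in Nos2-free barcodes, and 7 melanoma genes to 64.0 to 436 CPM and 189 to 830 CPM. For 7 B cell genes the sums were 22.7 to 79.3 and 73.7 to 280 CPM, and for 12 dendritic cell genes 34.7 to 95.4 and 46.7 to 147 CPM. Both of these lists were lower in members in all 7 pools. The 8 fibroblast and endothelial genes reached 48.1 to 733 CPM in members and 57.9 to 320 CPM in Nos2-free barcodes, where only 2 pools were lower in members. By mouse that sum in members ran from 34.3 to 3340 CPM in control isotype mice and from 40.7 to 1420 CPM in B2m-null anti-CD40 mice, and the melanoma sum reached 1080 CPM in a control isotype mouse. Of the 8 fibroblast and endothelial genes 2 rose in members against Nos2-free barcodes (median log2 difference 0.816), the endothelial genes Kdr (1.22 ± 0.33, adjusted p = 0.0257) and Pecam1 (0.70 ± 0.16, adjusted p = 0.00727), and Cdh5 rose with them against C1q-rich macrophages (2.0 ± 0.54, adjusted p = 0.022). No gene of these lists was at 0 in the members as a whole, and the part of such transcripts in the results was not tested.

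Nos2 itself was graded. Just outside the rule, 2638 barcodes of the myeloid gate held 1 Nos2 UMI, and just inside it 1141 held 2. The members had a median of 4 and a maximum of 70 Nos2 UMIs, and 1584 of them held at least 5. A further 626 barcodes with at least 2 Nos2 UMIs fell below the Lyz2 minimum, and 1109 were left out for Cd3 or Ccr7 transcripts. Nos2 lies at chr11:78920787-78960254 on the plus strand (GENCODE vM21, mm10). In pooled members it was at 563 ± 151 CPM (SD, n = 7 pools).

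The 250 bases before the start sites of 4 genes are shown, 2 from a list of glycolysis and hypoxia-response genes and 2 from interferon lists, because all 24 tested genes of the first list and 19 of 21 type I and 18 of 26 interferon-gamma genes rose in members against Nos2-free barcodes (17.8% of all genes tested did). The sequences are from RefSeq (GRCm38.p6), 5′ to 3′ on the gene's strand, with motif letters in capitals: the hypoxia response core ACGTG or GCGTG in Egln3 (chr12:54203875-54204124, minus strand) and Ldha (chr7:46845554-46845803, plus strand), and the interferon-stimulated response element (GAAA, 2 bases of any kind, GAAA) in Ifit3 (chr19:34583279-34583528, plus strand) and Cxcl10 (chr5:92348890-92349139, minus strand). Both strands were searched, and overlapping matches on opposite strands are written as 1 run of capitals.
Egln3: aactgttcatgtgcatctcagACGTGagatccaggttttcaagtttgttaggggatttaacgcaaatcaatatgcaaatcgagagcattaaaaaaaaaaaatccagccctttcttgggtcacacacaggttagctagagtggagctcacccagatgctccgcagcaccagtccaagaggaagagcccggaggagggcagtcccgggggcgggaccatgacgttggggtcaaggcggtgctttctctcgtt
Ldha: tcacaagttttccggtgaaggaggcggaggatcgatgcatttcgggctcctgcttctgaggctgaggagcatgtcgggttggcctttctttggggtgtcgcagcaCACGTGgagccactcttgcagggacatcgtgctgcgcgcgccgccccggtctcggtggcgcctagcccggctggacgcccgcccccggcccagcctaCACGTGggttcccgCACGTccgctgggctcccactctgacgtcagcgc
Ifit3: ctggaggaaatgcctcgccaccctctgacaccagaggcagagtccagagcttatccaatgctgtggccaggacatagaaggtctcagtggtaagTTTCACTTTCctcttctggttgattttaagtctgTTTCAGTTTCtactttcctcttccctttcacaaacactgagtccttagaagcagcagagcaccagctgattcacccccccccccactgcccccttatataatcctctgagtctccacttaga
Cxcl10: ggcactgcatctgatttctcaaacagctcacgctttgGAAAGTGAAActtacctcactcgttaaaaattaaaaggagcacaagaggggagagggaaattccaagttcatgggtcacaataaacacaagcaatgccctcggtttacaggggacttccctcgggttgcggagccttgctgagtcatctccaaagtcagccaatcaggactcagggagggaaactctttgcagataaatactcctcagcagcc
The hypoxia core was found in 21 of 23 promoters of the glycolysis and hypoxia list (91.3%), in 60.4% of 10147 promoters of genes tested in members and in 41.5% of 27025 promoters in the table. The interferon-stimulated response element was found in 12 of 18 promoters of the interferon-gamma list (66.7%), 8 of 17 of the type I interferon list (47.1%) and 3.48% of the tested genes. The gamma-activated site TTCNNNGAA was found in 9 of 18 interferon-gamma list promoters (50%) and in 7.28% of the tested genes. A match describes the letters in this window and is not a binding site. The promoters of Nos2, Ly6i and Cfb are not printed.

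The first question was how large a part of the tumour's myeloid cells carried Nos2 in each group. By lane, members made up 4.40% and 4.17% of the myeloid gate in control tumours with isotype antibody, 15.8% and 10.4% in the technical pair of control tumours with anti-CD40, 0.853% and 2.74% in B2m-null tumours with isotype antibody, and 20.1% and 18.3% in B2m-null tumours with anti-CD40. The exact 95% binomial intervals in the same order were 3.95% to 4.9%, 3.66% to 4.74%, 14.7% to 17.0%, 9.55% to 11.3%, 0.644% to 1.11%, 2.36% to 3.16%, 19.0% to 21.2% and 17.3% to 19.4%. These intervals cover counting error only, and those of the technical pair did not overlap.

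By mouse, the share in control tumours with isotype antibody ran from 1.16% to 6.26%, with a mean of 3.88% ± 2.29 (SD, n = 5). The 2 mice with control tumours and anti-CD40 had 10.1% and 14.0%, with a mean of 12.0% ± 2.74 (SD, n = 2). B2m-null tumours with isotype antibody had 0.161% to 3.57%, with a mean of 1.71% ± 1.35 (SD, n = 5). B2m-null tumours with anti-CD40 had 11.4% to 27.3%, with a mean of 18% ± 6.69 (SD, n = 4). Every anti-CD40 mouse lay above every isotype mouse, in both kinds of tumour. In the myeloid gate as a whole, Nos2 was at 39.2 and 165 CPM in control tumours with isotype antibody and anti-CD40, and at 14.8 and 189 CPM in B2m-null tumours (means over mice).

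**Figure D1:**
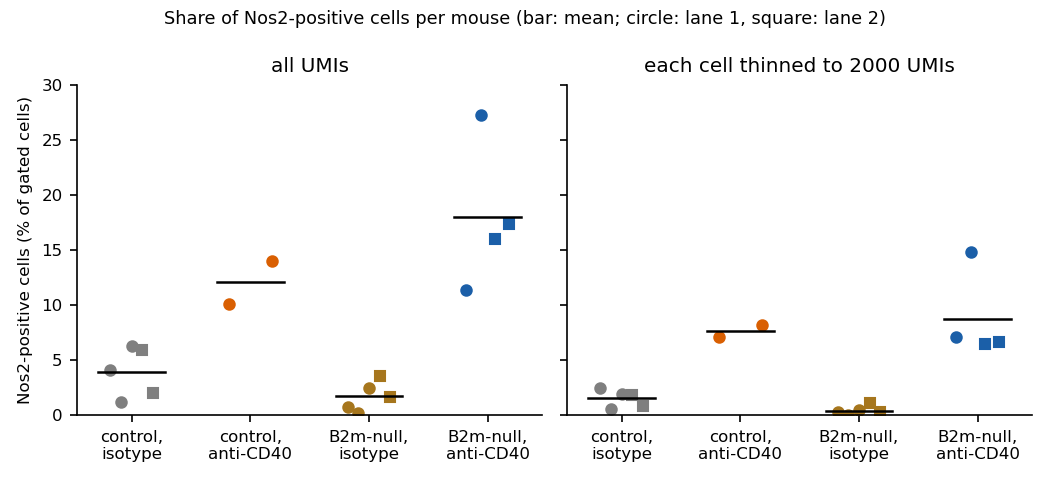
Members as a percent of the myeloid gate per mouse (y axis, percent), by group, from all UMIs and after thinning to 2000 UMIs the cells that held at least that many. Each point is 1 mouse, circles and squares mark the lane, and bars mark group means. With all UMIs the anti-CD40 mice lie between 10.1% and 27.3% and the isotype mice between 0.161% and 6.26%.

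The difference under anti-CD40 was 8.15 percentage points in control tumours (two-sided exact permutation test over mice, p = 0.0952, the smallest p that 2 mice against 5 allow). It was 16.3 points in B2m-null tumours (exact permutation p = 0.0159, again the smallest possible, and 0.0635 after Benjamini-Hochberg adjustment over the 4 share comparisons). Neither difference passed the adjusted threshold of 0.05. Mice that shared a lane were treated as independent in these tests, and by lane 2 against 2 cannot reach 0.05. As a percent of all barcodes that passed the quality filter, in place of the myeloid gate, the differences were 2.02 points in control tumours (exact permutation p = 0.286, no longer the smallest possible) and 7.68 points in B2m-null tumours (exact permutation p = 0.0159). Between tumour types, B2m-null tumours were lower by 2.17 points under isotype antibody (exact permutation p = 0.111) and higher by 5.96 points under anti-CD40 (exact permutation p = 0.267), and these groups overlapped. After thinning, which left a mean of 1.51%, 7.61%, 0.41% and 8.72% in the 4 groups in the order above, the anti-CD40 differences were 6.1 and 8.31 points. The anti-CD40 ratio of mean shares was 3.1 in control and 10.5 in B2m-null tumours with all UMIs, and 5.03 and 21.3 after thinning. The B2m-null to control ratio under anti-CD40 was 1.5 and fell to 1.14 with thinning. A share over a UMI threshold cannot tell more cells with Nos2 from more Nos2 RNA per cell.

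Members were then set against barcodes of the same myeloid gate without a Nos2 UMI in the same pool. As a share of UMIs, the arginine importer Slc7a2 and all 24 glycolysis and hypoxia-response genes tested were higher in members. So were 19 of 21 type I interferon genes, whereas 16 of 17 cell cycle and 14 of 28 resident macrophage genes were lower. Members were deeper, so a lower share need not be a lower count per cell. Of 13126 genes tested, 2332 (17.8%) rose and 2243 (17.1%) fell at an adjusted p under 0.05 (edgeR quasi-likelihood test on UMIs summed per pool, with the pool as a block), 34.9% in all. Cells were not treated as replicates. The scaling of the libraries moves small differences here: with total UMIs in place of edgeR's trimmed mean of M values (an alternative chosen after seeing the data) the median gene shifted by 0.17 on the log2 scale, 1272 genes rose and 4827 fell, and the higher share of the calls went from 51.0% to 20.9%. Values near 0 are therefore to be read relative to that shift.

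The 4 further markers of the population had been picked from earlier results of these data and are not independent evidence. Ass1, argininosuccinate synthase, which rebuilds arginine from citrulline, was at 68.1, 55.2, 57.1, 26.5, 56.9, 260 and 173 CPM in the members of the 7 pools (control isotype 1 and 2, control anti-CD40, B2m-null isotype 1 and 2, B2m-null anti-CD40 1 and 2) and at 46.5, 29.6, 23.3, 13.1, 22.8, 96.7 and 86.2 CPM in Nos2-free barcodes. It was higher in members in every pool (log2 difference 1.27 ± 0.10 SE, adjusted p = 2.72e-06). Upp1, uridine phosphorylase, was likewise higher in 7 of 7 pools, at 21.2 to 236 CPM against 5.63 to 102 CPM (1.56 ± 0.12, adjusted p = 6.1e-06). Ly6i, a Ly6-family surface antigen, was at 24.3, 17.2, 71.6, 2.65, 17.5, 587 and 117 CPM against 29.2, 12.3, 52.4, 6.09, 10.7, 336 and 85.6 CPM, higher in 5 of 7 pools (0.64 ± 0.12, adjusted p = 0.00189). Cfb, complement factor B, was higher in only 3 of 7 pools by CPM, 47.6 to 526 against 53.2 to 359 CPM. Its call (0.30 ± 0.09, adjusted p = 0.022) was lost with total UMIs (0.13, adjusted p = 0.247), without the control anti-CD40 pool (adjusted p = 0.0798) and without B2m-null isotype pool 2 (adjusted p = 0.0504). Ly6i and Cfb varied more between pools than between members and Nos2-free barcodes of 1 pool.

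Among 11 tested genes of nitric oxide and arginine metabolism, 6 rose and 3 fell, with a median log2 difference of 0.186 against -0.0192 over all genes tested. Slc7a2, the cationic amino acid transporter that imports arginine in activated macrophages (chr8:40862396-40922308, plus strand), was at 129, 150, 197, 151, 174, 243 and 188 CPM in members and at 24.7, 26.2, 35.4, 22.3, 20.7, 23.8 and 33.0 CPM in Nos2-free barcodes (2.88 ± 0.12, adjusted p = 3.51e-07). The lowest member pool lay above the highest Nos2-free pool. Arg1, arginase, was also higher in the summed members, at 250 to 1920 CPM against 172 to 631 CPM (1.48 ± 0.14, adjusted p = 0.000277), in 7 of 7 pools. Whether single barcodes held both Arg1 and Nos2 was not tested. Gch1, the first enzyme of the synthase's cofactor tetrahydrobiopterin, rose (0.87 ± 0.05, adjusted p = 1.92e-10), while Pts and Spr, which complete that cofactor, fell (-0.37 ± 0.06 and -0.37 ± 0.07). Slc7a1, the housekeeping arginine transporter, fell from 26.6 to 17.3 CPM on average (-0.37 ± 0.09, adjusted p = 0.00368), and its call was lost with thinned cells (-0.15, adjusted p = 0.556). Asl passed (0.19 ± 0.07, adjusted p = 0.0334) but not with total UMIs (0.01, adjusted p = 0.966), nor without control isotype pool 2 or without pool 2 of either B2m-null group (adjusted p = 0.119, 0.0789 and 0.133).

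Among genes with at least 20 CPM in members and the same direction in every pool, Inhba, Tnfrsf9 and Slc7a2 had the 3 largest increases. Inhba, the activin A subunit (chr13:16011851-16031621, plus strand), was at 138, 86.4, 112, 116, 147, 289 and 240 CPM in members and 29.5, 12.1, 13.6, 8.24, 20.1, 33.0 and 34.3 CPM in Nos2-free barcodes (3.04 ± 0.14, adjusted p = 1.43e-06), with no overlap between the sides. Tnfrsf9, the costimulatory receptor 4-1BB, was at 18.5 to 88.1 CPM against 6.04 to 10.9 CPM (2.89 ± 0.18, adjusted p = 7.4e-06). Rsad2, the antiviral protein viperin, was at 273 to 852 CPM against 91.7 to 225 CPM (2.06 ± 0.13, adjusted p = 1.78e-05). These genes were higher in members in each of the 7 pools.

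Of 24 tested glycolysis and hypoxia-response genes all 24 rose, with a median of 0.909 against -0.0192 for all genes, and all 24 also rose with thinned cells and with total UMIs. Egln3, an oxygen-sensing prolyl hydroxylase whose promoter is shown above, was at 114, 150, 50.7, 122, 220, 103 and 108 CPM against 29.8, 36.1, 14.2, 31.3, 46.8, 26.1 and 22.7 CPM (2.21 ± 0.06, adjusted p = 5.75e-16). The hypoxia-response genes Ndrg1, Ero1l and Adm rose by 2.0, 2.03 and 2.15, and Mgarp, a mitochondrial protein gene outside the list, by 2.15. Slc2a1, the glucose transporter GLUT1, was at 141 to 308 CPM against 42.0 to 106 CPM (1.71 ± 0.06, adjusted p = 1.67e-13), and Vegfa, the angiogenic growth factor, at 147 to 344 against 50.7 to 78.3 CPM (1.69 ± 0.08, adjusted p = 1.82e-09). Ldha, lactate dehydrogenase, rose less in relative terms, from 842 ± 130 to 1380 ± 254 CPM (SD, n = 7; 0.86 ± 0.04, adjusted p = 3.26e-12). Of 19 genes of the tricarboxylic acid cycle list 2 rose (Mdh2 and Acod1) and 6 fell, among them Idh2 and Fh1 (1 and 3 with thinned cells). Acod1, which makes itaconate, is in this list but is not an enzyme of the cycle itself.

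**Figure D2:**
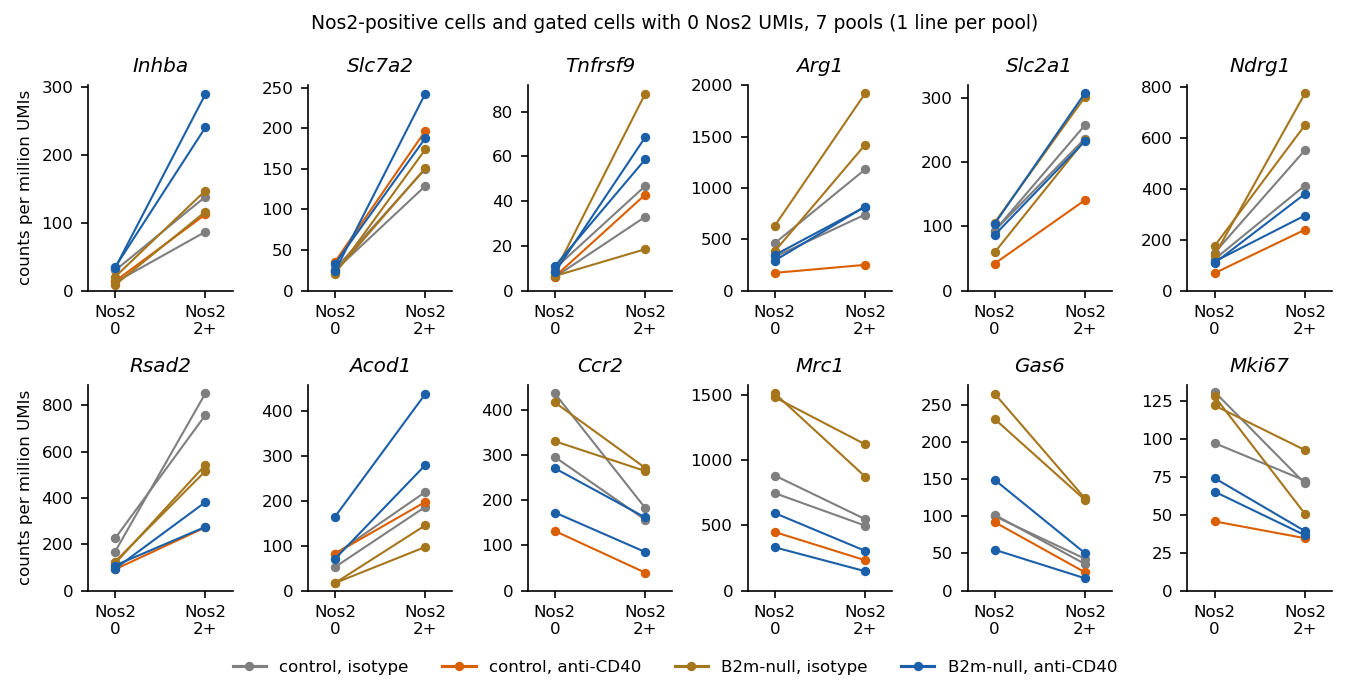
CPM (y axis, linear, a scale per gene) of 12 genes in Nos2-free barcodes (left) and in members (right); each line joins the sides of 1 of the 7 pools, coloured by group. The lines of Inhba, Slc7a2 and Tnfrsf9 go up and those of Ccr2, Mrc1, Gas6 and Mki67 go down in each of the 7 pools.

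Of 21 type I interferon response genes 19 rose and 1 fell (Ifi27l2a), with a median of 0.696. Isg15 was at 243 to 694 CPM against 118 to 404 CPM (1.18 ± 0.10, adjusted p = 1.2e-05), and Ifit3 at 31.7 to 145 against 19.5 to 82.8 CPM (1.07 ± 0.07, adjusted p = 2.1e-10). Of 26 interferon-gamma response genes 18 rose and none fell, with a median of 0.351. The chemokine Cxcl9 was at 356 to 1310 against 184 to 906 CPM (0.82 ± 0.11, adjusted p = 0.000575) and the guanylate-binding protein Gbp2 at 234 to 748 against 132 to 514 CPM (0.75 ± 0.10, adjusted p = 0.00033). Cxcl10 and Tap1 did not pass with total UMIs. Cxcl10 (0.89 ± 0.26, adjusted p = 0.0385) also failed when the control anti-CD40 pool, control isotype pool 2, B2m-null isotype pool 2 or either B2m-null anti-CD40 pool was left out (adjusted p from 0.0624 to 0.0863). Under total UMIs the type I list had 16 higher and 2 lower, but the interferon-gamma list had only 11 higher and 1 lower, and thinned cells gave 10 of 25 higher. The interferon-gamma count therefore moved with the scaling and the depth. The type I list had 16 higher and 1 lower with thinned cells.

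Of 32 NF-kB and inflammatory activation genes 19 rose and 1 fell (Nfkbiz), with a median of 0.534. Il1a, an alarmin cytokine, was at 27.3 to 58.5 CPM in members and 7.85 to 17.9 CPM in Nos2-free barcodes (1.97 ± 0.14, adjusted p = 3.82e-06). Acod1, which makes itaconate, was at 96.9 to 437 against 16.6 to 164 CPM (1.96 ± 0.21, adjusted p = 0.000534), and the prostaglandin synthase Ptgs2 at 333 to 640 CPM in members (1.43 ± 0.10, adjusted p = 9e-06). Il1b, in contrast, was at 114 to 625 CPM in members and 141 to 627 CPM in Nos2-free barcodes, higher in 3 of 7 pools (0.37 ± 0.21, adjusted p = 0.236). Il6 stayed at 2.65 to 10.4 CPM (0.42 ± 0.18, adjusted p = 0.0875). Neither Il1b nor Il6 passed the test.

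Of 20 chemokines tested 11 rose, among them Ccl5, Cxcl1 and Cxcl3, and 3 fell (Cxcl13, Ccl7 and Ccl12). Of 19 costimulatory and checkpoint genes 10 rose and 2 fell. Cd274, which encodes PD-L1, was at 231 to 512 CPM against 87.1 to 245 CPM (1.37 ± 0.07, adjusted p = 1.39e-09), and Pdcd1lg2, which encodes PD-L2, rose by 1.49 ± 0.10 (adjusted p = 2.94e-10). Cd40, the receptor bound by the treatment antibody, was at 42.8 to 104 against 28.5 to 79.5 CPM (0.74 ± 0.07, adjusted p = 1.17e-07). Of 20 MHC class I and antigen-processing genes 16 rose, by small amounts (median 0.242, B2m 0.41 ± 0.04), which became 9 higher and 1 lower with total UMIs and 10 higher and 1 lower with thinned cells.

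Many resident macrophage and most cell cycle genes were lower in members than in Nos2-free barcodes. Of 28 mature and resident macrophage genes 14 fell and 5 rose, with a median of -0.245. Cd163, a haemoglobin scavenger receptor, was at 0.42 to 31.7 CPM in members and 8.94 to 55.9 CPM in Nos2-free barcodes (-1.76 ± 0.33, adjusted p = 0.00573). Lyve1, Fcrls, Cd209f and Gas6 fell by 1.6, 1.52, 1.9 and 1.29, each lower in all 7 pools, as the rule for genes named by size asks. The 5 that rose were Spp1, Gpnmb, Hmox1, Mmp12 and Cd68. Syt4 (-1.5 ± 0.37) was also among the 10 largest decreases of genes chosen by that rule, and its call was lost without the control anti-CD40 pool (adjusted p = 0.064). Of 17 cell cycle genes 16 fell and none rose (median -0.668). Mki67 was at 34.5 to 92.6 CPM in members against 45.6 to 131 CPM, lower in 7 of 7 pools (-0.59 ± 0.11, adjusted p = 0.00167). Of 17 classical monocyte genes 5 fell, among them Ccr2, and 1 rose, Thbs1 (8 fell with thinned cells). Markers of other cell types fell as well, where 17.1% of all genes did: 5 of 12 dendritic cell genes (Dpp4, Zbtb46, Flt3, Xcr1 and Wdfy4, median -0.55), 2 of 6 B cell genes (Cd79b and Ighm) and 3 of 7 melanoma genes (Tyr, Sox10 and Mlana). None of these 3 lists had a gene that rose. Their part in the differences was not tested.

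**Figure D3:**
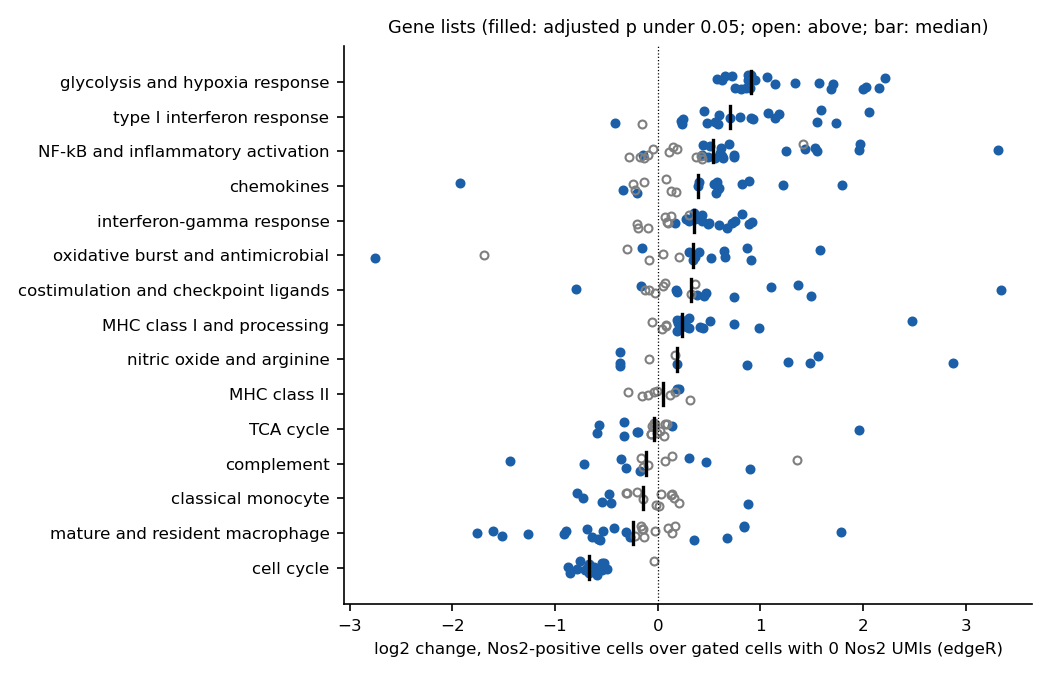
Log2 difference of members against Nos2-free barcodes for each tested gene of 15 lists (x axis); filled points passed the test at an adjusted p under 0.05 and the bar is the list's median. The glycolysis and hypoxia list lies wholly above 0 (median 0.909) and the cell cycle list below it (median -0.668).

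The same genes were followed over the number of Nos2 UMIs in a cell, as a description without a test, since the classes are cells of the same pools and their depth rises with the class (median 3978, 5349, 5824, 6663 and 8791.5 UMIs for 0, 1, 2, 3 to 4 and at least 5 Nos2 UMIs). Slc7a2 averaged 26.6, 74.2, 108, 144 and 258 CPM over pools in these classes. Inhba averaged 21.5, 58.5, 107, 144 and 218 CPM, and Tnfrsf9 7.99, 28.7, 35.0, 53.1 and 72.8 CPM. The mean of all 3 was thus higher at each further Nos2 level, the class of 1 UMI outside the rule included, over 7 pools up to 2 UMIs and 6 pools above. Slc2a1 averaged 83.7 and 180 CPM at 0 and 1 Nos2 UMI and 244, 225 and 269 CPM at 2, 3 to 4 and at least 5, and Ndrg1 125 and 323 CPM and then 431, 428 and 467 CPM. Egln3 averaged 29.6, 90.5, 111, 119 and 141 CPM. The mean of Egln3 was thus higher in each further class and those of Slc2a1 and Ndrg1 were not, and from 2 UMIs on the SDs over pools overlapped in all 3 genes. Adgre1 went from 445 to 249 CPM and Mki67 from 94.7 to 45.2 CPM between the lowest and the highest class.

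**Figure D4:**
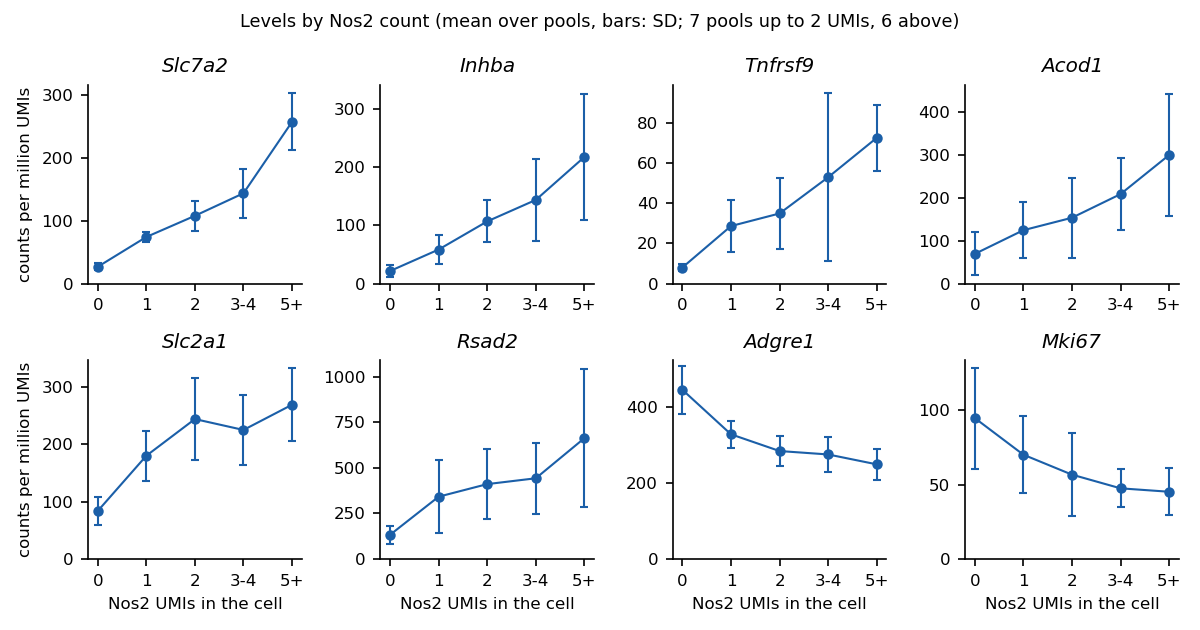
CPM (mean and SD over 7 pools up to 2 Nos2 UMIs and over 6 above) of 8 genes by the number of Nos2 UMIs in a cell (x axis). The means of Slc7a2, Inhba and Tnfrsf9 are higher in each further class and those of Adgre1 and Mki67 lower.

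Against the most monocyte-like barcodes of the gate (no Nos2 and no C1q, and at least 2 UMIs of Chil3 and Vcan together), 2188 of 10337 tested genes rose (21.2%) and 1899 fell (18.4%), 39.5% in all. With total UMIs 1608 rose and 2730 fell, which takes the higher share from 53.5% to 37.1%. Of 25 mature and resident macrophage genes 20 were higher in members and 3 lower (median 1.58 against 0.0261 for all genes), and of 15 classical monocyte genes 13 were lower and 1, Lyz1, higher. The comparison side was chosen for no C1q and for Chil3 or Vcan, whereas 72.8% of members held at least 5 C1q UMIs. The direction of these 2 lists, and of the macrophage and monocyte genes named below, is therefore partly set by the gate. The NF-kB list, the cell cycle list, Il1b and Ly6i differed here in the same direction as between C1q-high and C1q-low members (further below). The part of the C1q gate in those results was not tested. The chemokine gene Ccl8 was at 1350 to 4870 CPM in members and 50.8 to 121 CPM in the monocyte gate (5.04 ± 0.35, adjusted p = 5.05e-05). Folr2, a folate receptor of resident macrophages, was at 59.7 to 137 against 0 to 16.0 CPM (3.44 ± 0.18), and Mmp12, macrophage elastase, at 764 to 3170 against 32.7 to 379 CPM (3.54 ± 0.27). H2-M2, a class Ib MHC gene, averaged 56.2 CPM in members and 0.0691 CPM in the monocyte gate.

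Ccr2, the chemokine receptor of monocyte entry, was at 39.6 to 272 CPM in members and 801 to 1440 CPM in the monocyte gate (-2.73 ± 0.27, adjusted p = 0.000241), and Ly6c2 fell by 3.02. Here Il1b was lower in members in every pool, 114 to 625 against 858 to 1970 CPM (-1.86 ± 0.32, adjusted p = 0.00408), as were 18 of 30 NF-kB list genes, with 4 higher. Of the markers, Ly6i was lower in members (-0.87 ± 0.16, adjusted p = 0.000706), and Ass1 did not pass the test (0.13 ± 0.11, adjusted p = 0.397). Slc7a2 (2.78 ± 0.21), Arg1 (1.92 ± 0.15), Inhba (1.5 ± 0.22) and 22 of 24 glycolysis and hypoxia genes were again higher in members. Interferon targets were mixed here: of 25 interferon-gamma genes 3 were higher and 8 lower (median -0.0567), and of 21 type I genes 8 were higher and 5 lower (median 0.0108), or 7 and 9 with total UMIs. Of 17 cell cycle genes 11 were higher in members than in the monocyte gate and none lower (median 0.939), with 5 higher under total UMIs and 10 of 13 with thinned cells. The monocyte gate also held neutrophil transcripts: 7 of 10 neutrophil genes were lower in members, and S100a9, a calprotectin subunit, averaged 47.7 CPM in members and 2810 ± 4590 CPM (SD, n = 7) in the gate. When barcodes with a neutrophil granule transcript were left out (chosen after seeing the data), S100a9 did not pass (-2.29, adjusted p = 0.0653).

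Against C1q-rich macrophages without Nos2 (at least 5 C1q UMIs), 2438 of 12894 genes rose (18.9%) and 2529 fell (19.6%), 38.5% in all, with 1553 and 4436 under total UMIs, where the higher share was 25.9% in place of 49.1%. Inhba averaged 161 ± 74.3 CPM in members and 13.8 CPM in these macrophages (3.65 ± 0.12, adjusted p = 7.47e-09). Slc7a2 and Tnfrsf9 rose by 2.92 and 3.16. In this comparison Il1b was higher in members (1.17 ± 0.24, adjusted p = 0.00959). Its level of 363 ± 169 CPM in members lay between the 175 CPM of C1q-rich macrophages and the 1380 CPM of the monocyte gate. Members mix C1q-high and C1q-low barcodes, which differed in Il1b (below), while both comparison sides were chosen by C1q. The part of that mix in the level of Il1b was not tested. Cd209g, Cd209f, Cd163, Lyve1, Fcrls and Cbr2 had the 6 largest decreases by that rule.

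Gene expression also differed by C1q level within the members. Barcodes with at least 5 C1q UMIs were compared with those with at most 1 in 6 pools with at least 20 cells on both sides, which left out B2m-null isotype pool 1, and C1q genes were not tested. Of 9523 genes 733 were higher in C1q-high members (7.70%) and 584 lower (6.13%), 13.8% in all. Without either of the B2m-null anti-CD40 pools the calls numbered 845 and 808. Ccl8 was at 1840 to 5250 CPM in C1q-high and 66.4 to 685 CPM in C1q-low members (3.78 ± 0.36, adjusted p = 0.00221), and Cadm1, an adhesion molecule, at 39.8 to 120 against 0 to 11.3 CPM (3.14 ± 0.32). Of 17 cell cycle genes 12 were higher in C1q-high members and none lower (median 1.49 against 0.00722 for all genes), and Mki67 averaged 55.7 against 17.0 CPM (1.71 ± 0.21, adjusted p = 6.07e-07).

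Il1b and monocyte genes were among those higher in C1q-low members. Of 29 NF-kB list genes 18 were lower in C1q-high members and none higher, and of 17 classical monocyte genes 14 were lower. Of 7 neutrophil genes 2 were lower in C1q-high members (Il1r2 and Csf3r) and 1 higher (Mmp9), with a median of -0.661. None of 8 fibroblast and endothelial genes passed, with a median of -1.1. The part of such transcripts was not tested. Il1b was at 95.2 to 452 CPM in C1q-high and 472 to 1410 CPM in C1q-low members, with no overlap (-1.68 ± 0.24, adjusted p = 0.00968). Thbs1, thrombospondin, averaged 376 against 1780 CPM (-2.21 ± 0.23, adjusted p = 0.00255). Ly6i, Ass1 and Upp1 were lower in C1q-high members by 1.47, 0.9 and 1.19, and Cfb did not pass (-0.12 ± 0.12, adjusted p = 0.555). Inhba averaged 133 against 439 CPM (-1.73 ± 0.38, adjusted p = 0.043), a call that was lost without any 1 of 5 pools (adjusted p from 0.0714 to 0.127); it held only without B2m-null anti-CD40 pool 1. Cxcl3 and Slpi also had calls lost by leaving out 1 pool: Cxcl3 (-2.01 ± 0.42) in 5 cases, all but control isotype pool 2, with adjusted p from 0.071 to 0.102, and Slpi (-2.13 ± 0.34) without B2m-null anti-CD40 pool 2, with adjusted p = 0.065. C1q-low cells made up 9.67% to 32.5% of the members of a lane, with the highest share in B2m-null anti-CD40 pool 1. In that lane 20.9% of C1q-low and 18.6% of C1q-high barcodes of the gate were members, whereas in the first control anti-CD40 lane these were 8.29% and 18.9%. That difference between lanes was not tested.

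Within the members, gene expression was compared between treatments and tumour types over 13 mice with at least 20 members: 5 control isotype, 2 control anti-CD40, 2 B2m-null isotype (both from pool 2) and 4 B2m-null anti-CD40. All groups shared 1 estimate of the spread, and mice that shared a lane were treated as independent. The mix of the members differed between these mice: C1q-low cells were 13.8% to 27.5% of the members in control isotype mice, 27.1% and 5.58% in control anti-CD40 mice, 32.0% and 15.9% in B2m-null isotype mice, and 32.4%, 33.1%, 16.9% and 14.6% in B2m-null anti-CD40 mice. Its part in the comparisons below was not tested. In control tumours with anti-CD40, 8 of 21 type I interferon genes and Arg1 were lower and 6 of 20 MHC class I genes higher in members. Of 8835 genes 414 rose (4.69%) and 239 fell (2.71%), 7.39% in all, and with total UMIs 258 rose and 504 fell, a higher share of 33.9% in place of 63.4%. The calls numbered 321 without mouse 1 and 203 without mouse 2 of the control anti-CD40 pool, and 422 and 394 without control isotype pools 1 and 2. Of 12 genes named by size of change, 5 kept their call in every such omission (Orm1, Gm36738, Slfn4, Isg20 and Hist1h1e).

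Orm1, an acute-phase protein, was at 0 to 8.95 CPM in the 5 isotype mice (median 2.78) and at 64.1 and 56.9 CPM in the anti-CD40 mice (4.25 ± 0.35, adjusted p = 3.43e-07). Slfn4, an interferon-inducible myeloid gene, was at 38.3 to 87.7 CPM and at 6.11 and 2.65 CPM (-3.78 ± 0.35, adjusted p = 5.62e-07). Isg15 was at 736, 614, 706, 693 and 408 CPM in isotype mice and at 253 and 247 CPM with anti-CD40 (-1.2 ± 0.24, adjusted p = 0.005). The groups did not overlap in Isg15, nor in Orm1 and Slfn4, which were named by a rule that asks for no overlap. Of 21 type I interferon genes 8 fell and none rose (median -0.818 against -0.024 for all genes), 12 fell with total UMIs and 11 of 19 with thinned cells, and of 20 MHC class I genes 6 rose, or 4 with total UMIs. B2m was at 4000 to 4690 CPM and at 5650 and 6180 CPM (0.61 ± 0.14, adjusted p = 0.00718). Isg15 and B2m lost their calls without 1 of the anti-CD40 mice (adjusted p = 0.0869 and 0.199 without mouse 2), and without control isotype pool 1 (0.0844 and 0.063). Isg15 lost it without anti-CD40 mouse 1 as well (0.0888). B cell genes summed to 35.1 to 65.9 CPM in the members of isotype mice and at most 22.2 CPM with anti-CD40, and their part in these differences was not tested.

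Arg1 was at 621 to 1290 CPM in control isotype mice and at 466 and 190 CPM with anti-CD40 (-1.47 ± 0.35, adjusted p = 0.029), a difference that did not pass without anti-CD40 mouse 2 (-0.98, adjusted p = 0.179), without isotype mouse 3 of pool 1 (adjusted p = 0.0575), without isotype pool 2 (0.055) or without the first technical lane (0.18). The markers Ly6i, Cfb, Ass1 and Upp1 did not pass in control tumours (2.26 ± 0.81, 0.73 ± 0.49, -0.06 ± 0.33 and 0.43 ± 0.41, with adjusted p = 0.149, 0.463, 0.98 and 0.631). Ly6i was at 12.3 to 43.8 CPM in isotype and at 81.7 and 64.7 CPM in anti-CD40 mice, groups that did not overlap. Lyz1 (3.66 ± 0.56), a lysozyme paralogue of the rule gene Lyz2 whose reads may be split between the copies, rose, and its call was lost without control isotype pool 1 (adjusted p = 0.0869). Thbs1 fell by 2.47, Ms4a4c by 2.39 and Vcan by 2.26, and Vcan did not pass without anti-CD40 mouse 2 (adjusted p = 0.0728).

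In B2m-null tumours 157 genes rose with anti-CD40 (1.78%) and 171 fell (1.94%), 3.71% in all, and with total UMIs 94 rose and 342 fell, a higher share of 21.6% in place of 47.9%. The 4 markers and 11 of 20 MHC class I genes rose, and 5 of 27 resident macrophage genes fell. With thinned cells 2 markers (Ass1 and Upp1) and 7 MHC class I genes rose, and 2 of 24 resident macrophage genes fell. Summed levels of other cell types' markers also differed without overlap between the isotype and the anti-CD40 mice: 40.6 to 69.3 against 93.5 to 328 CPM for neutrophil genes, 6.01 to 16.7 against 29.7 to 87.3 CPM for T and NK cell genes and 52.6 to 90.2 against 25.4 to 42.6 CPM for dendritic cell genes. Their part in the differences was not tested. Ly6i was at 19.3 and 19.5 CPM in the isotype mice and at 418, 619, 121 and 98.0 CPM in the anti-CD40 mice (4.07 ± 0.94, adjusted p = 0.0492), and Cfb at 80.9 and 37.6 against 412, 566, 194 and 201 CPM (2.6 ± 0.60, adjusted p = 0.0472). Ass1 was at 83.5 and 28.5 against 148, 283, 175 and 197 CPM (1.94 ± 0.36, adjusted p = 0.0115), and Upp1 at 68.1 and 15.0 against 142, 240, 141 and 136 CPM (2.06 ± 0.47, adjusted p = 0.0407). The groups did not overlap in any of the 4 genes, which the rule for genes named by size had asked of Ly6i and Cfb. Both isotype mice came from 1 lane, and the anti-CD40 pool 1 mice were higher than the pool 2 mice for Ly6i and Cfb. Ly6i, Cfb and Upp1 did not pass with total UMIs (adjusted p = 0.0527, 0.0539 and 0.052), and without isotype mouse 2 the adjusted p were 0.266, 0.279, 0.0758 and 0.141 for Ly6i, Cfb, Ass1 and Upp1. The call of Ly6i was also lost without isotype mouse 1 or either anti-CD40 mouse of pool 1, as was that of Cfb (adjusted p from 0.0565 to 0.255 for Ly6i and 0.0604 to 0.13 for Cfb). Upp1 lost its call without 3 of the 4 anti-CD40 mice (adjusted p from 0.0525 to 0.0585) and without either anti-CD40 pool (0.0636 and 0.0666).

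Of 20 MHC class I genes 11 rose and none fell in B2m-null tumours (median 0.768 against -0.00045). H2-K1 was at 2120 and 1440 CPM in isotype and 2630 to 3510 CPM in anti-CD40 mice (0.89 ± 0.16, adjusted p = 0.00308). Of 24 interferon-gamma genes 5 rose, among them Socs1 (1.93 ± 0.44) and Il18bp (1.69 ± 0.32), feedback inhibitors of cytokine signals. Of 27 resident macrophage genes 5 fell, among them Mrc1, Fcrls, Pf4 and Maf. In the interferon-gamma list 2 rose with total UMIs. Mrc1, the mannose receptor, was at 734 and 930 CPM against 146 to 289 CPM (-1.77 ± 0.32, adjusted p = 0.0125). Ppbp, a platelet chemokine, was at 175 and 158 against 1.04 to 9.72 CPM (-4.89 ± 0.45, adjusted p = 0.000486). The calls numbered 35 without isotype mouse 2, 118 without isotype mouse 1 and 195 without anti-CD40 mouse 2 of pool 1, and of 12 genes named by size only Orm1 (2.81 ± 0.44) and Ppbp kept theirs in every omission. H2-K1, Socs1, Il18bp and Mrc1 did not pass without isotype mouse 2 (adjusted p = 0.138, 0.242, 0.12 and 0.142), Socs1 and Mrc1 not without isotype mouse 1 (0.0517 for both), and Socs1 not without anti-CD40 pool 1 (0.0636).

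**Figure D5:**
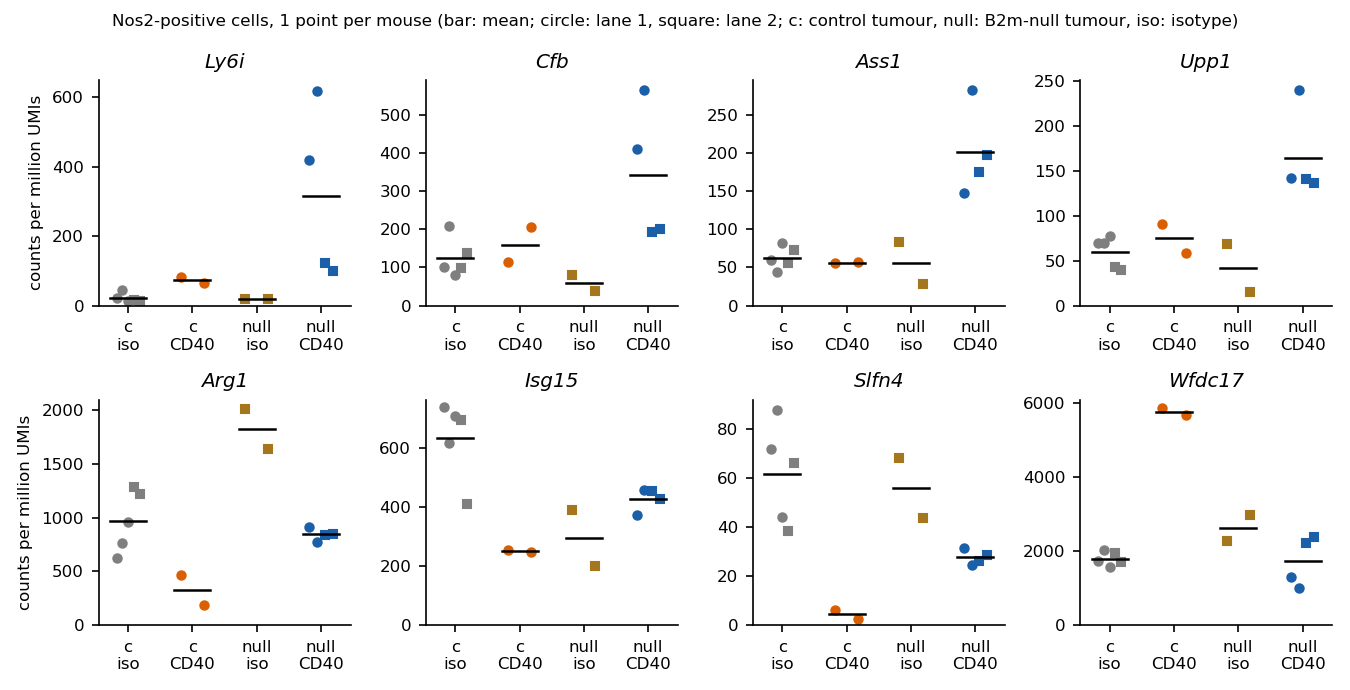
CPM in members of each of 13 mice (y axis) for 8 genes by group; bars mark group means and the symbol marks the lane. The group means of Ly6i, Cfb, Ass1 and Upp1 are highest in B2m-null tumours with anti-CD40, and in control tumours with anti-CD40 both mice lie below all others for Slfn4 and above all others for Wfdc17.

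Between tumour types under isotype antibody few genes were called: 13 rose (0.147%) and 2 fell (0.0226%) in B2m-null tumours, 0.17% in all, over 5 and 2 mice. A low count from so few mice does not show that the other genes were alike. With total UMIs 9 rose and 3 fell, and with DESeq2 40 rose and 27 fell. Ppbp was at 0 to 11.1 CPM in control and at 175 and 158 CPM in B2m-null tumours (4.74 ± 0.52, adjusted p = 0.00394), and Clcn5, a chloride transporter, at 14.3 to 25.5 against 70.6 and 67.6 CPM (1.77 ± 0.25, adjusted p = 0.00239). F13a1 rose by 1.38 and Maf by 0.85, and Atad2, a chromatin ATPase, fell by 1.77. Without control isotype pool 1 only 2 calls were left. Clcn5, F13a1 and Maf were not among them (adjusted p = 0.0583, 0.0583 and 0.286). F13a1 and Maf also failed without either B2m-null mouse (adjusted p from 0.067 to 0.332 and 0.0892 to 0.206) and without 1 of several control mice (0.05 to 0.0599). Ly6i, Cfb, Ass1, Upp1, Arg1 and Slc7a2 did not pass (adjusted p from 0.334 for Arg1 to 0.987 for Ly6i). The number of calls was 6 without B2m-null isotype mouse 2, 9 and 3 without control isotype mice 1 and 3 of pool 1, and 26 without mouse 2 of control isotype pool 2.

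Under anti-CD40, 79 genes were higher (0.894%) and 111 lower (1.26%) in members from B2m-null than from control tumours, 2.15% in all, over 4 mice and 2 mice of 1 pool. Slfn4 was at 24.3 to 31.2 CPM against 6.11 and 2.65 CPM (2.96 ± 0.34, adjusted p = 0.000121), Ms4a4c, a monocyte gene, at 99.4 to 226 against 43.5 and 44.6 CPM (1.85 ± 0.30), and Ass1 at 148 to 283 against 55.7 and 56.5 CPM (1.85 ± 0.32, adjusted p = 0.0117). Wfdc17, a secreted WAP-domain protein of myeloid cells, was at 1010 to 2390 against 5850 and 5670 CPM (-1.7 ± 0.32, adjusted p = 0.0237), and Hcst, the adaptor DAP10, at 32.0 to 47.5 against 95.4 and 102 CPM (-1.28 ± 0.19, adjusted p = 0.00132). Of 11 nitric oxide and arginine genes 3 were higher (Ass1, Odc1 and Arg2) and of 21 type I interferon genes 3 (Isg20, Irf7 and Ifi27l2a). With total UMIs 1 type I gene was higher, and with thinned cells 5 of 19 type I genes and 5 of 9 nitric oxide and arginine genes. Melanoma genes summed to 56.0 to 257 CPM in B2m-null and 287 to 764 CPM in control anti-CD40 mice, without overlap, with Tyr lower (-3.4 ± 0.84, adjusted p = 0.035) and a median of -3.27 over 6 genes. B cell genes summed to 26.6 to 68.6 CPM against at most 22.2 CPM. The part of these transcripts in the comparison was not tested. All of this comparison rests on the 1 control anti-CD40 pool, whose 2 mice shared lanes and were treated as independent. Counted by pools, that group has no replicate. Without its mouse 2 the edgeR fit called 0 genes, with 854 at an unadjusted p under 0.05, and without its mouse 1 it called 49. None of the 12 genes named by size kept its call in every omission. Without mouse 2 the adjusted p was 0.069 for Slfn4, 0.129 for Ms4a4c, 0.208 for Ass1, 0.222 for Wfdc17 and 0.0976 for Hcst, and without mouse 1 Ms4a4c, Ass1 and Wfdc17 did not pass (0.0669, 0.12 and 0.122).

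The anti-CD40 effect itself differed between tumour types for 56 of 8835 genes (0.634%), 13 more positive in B2m-null tumours (0.147%) and 43 more negative (0.487%), tested as a difference of differences. With DESeq2 45 were more positive and 73 more negative. Isg15, Oasl1 and Isg20, 3 of 21 type I interferon genes, had more positive effects in B2m-null tumours (1.85 ± 0.34, 1.56 ± 0.33 and 3.0 ± 0.51, with adjusted p = 0.0154, 0.0254 and 0.00357). Isg15 was at 389 and 200 CPM in B2m-null isotype mice and at 373, 458, 454 and 425 CPM with anti-CD40 (0.65 ± 0.24, adjusted p = 0.152), next to its decrease in control tumours. Slfn4 (2.85 ± 0.44) and Wfdc17 (-2.3 ± 0.44, adjusted p = 0.0496) also differed. These calls rest on few mice. Without control anti-CD40 mouse 2 the adjusted p was 0.134 for Isg15, 0.164 for Oasl1, 0.198 for Isg20, 0.155 for Slfn4 and 0.196 for Wfdc17. Isg15 also failed without control anti-CD40 mouse 1 (0.12), B2m-null isotype mouse 2 (0.0715) or control isotype pool 1 (0.187), and Oasl1 and Wfdc17 failed without either B2m-null isotype mouse (0.0555 and 0.257 for Oasl1, 0.0815 and 0.247 for Wfdc17) and in further omissions. For Ly6i, Cfb, Ass1 and Upp1 the difference of effects did not pass (1.81 ± 1.32, 1.86 ± 0.77, 2.0 ± 0.49 and 1.63 ± 0.63, with adjusted p = 0.695, 0.422, 0.11 and 0.381). With thinned cells Ass1 passed (2.83, adjusted p = 0.00466) and the other 3 did not. The count was 21 without control anti-CD40 mouse 2, 29 without B2m-null isotype mouse 2, 27 without control isotype pool 1, 88 without the first technical lane and 101 without B2m-null anti-CD40 pool 2.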

How the data were processed

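Single-cell RNA sequencing counts were used as deposited: 8 matrices of whole-number UMI counts per gene and barcode (32285 genes each, with hashtag entries), made by the authors with bcl2fastq 2.20.0.422 and Cell Ranger 3.0.0 on mm10, per the submitters' processing notes. Doublet removal before deposit is not given in the sources used here. Hashtags were called in each lane (at least 20 hashtag UMIs, 2.5 SD, mixture posterior 0.9). The 2 lanes of the control anti-CD40 pool were summed as 1 pool. UMIs of members and of comparison barcodes were summed per pool or per mouse (at least 20 cells) and tested with edgeR 4.0.16 (R 4.3.3, limma 3.58.1), by the quasi-likelihood test with TMM factors, filterByExpr and Benjamini-Hochberg adjustment, and with the pool as a block where both sides came from the same pools. Pools (where both sides came from the same pools) or mice (between groups), not cells, were the replicates. P-values of the former measure the spread between pools. Mice of 1 lane were treated as independent, so p-values between groups measure the spread between mice and not that between lanes. Shares were compared over mice with exact permutation tests in scipy 1.17.1, which were two-sided. Lane intervals are exact Clopper-Pearson intervals and cover counting error only.

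Members, gene lists and tests were chosen with earlier results of these data known. The text names the population's markers, genes of the described lists, and, by size, the 10 highest and 10 lowest log2 changes against Nos2-free barcodes and 6 of each elsewhere, among genes past the threshold, with the same direction in every pool or without overlap between mice, and with at least 20 CPM on the higher side. Alternatives were DESeq2 1.42.0, other scaling, no low-count filter, thinning to 2000 UMIs, other Nos2 minimums, the pool as the unit, blocks and omissions of pools or mice. Thinning left out barcodes with fewer than 2000 UMIs. For the shares the gate was applied anew, which left 1191 of 2051 gated barcodes in mouse 1 of control anti-CD40. In the gene tests thinned cells kept the membership set at full depth. The count tests were tried on simulated data with a set spread, not that of these data. Against Nos2-free barcodes 54% of genes raised 2-fold and 100% of those raised 4-fold were called. Between groups, without the difference of effects, these were 4% to 18% and 77% to 94%. Scaling by total UMIs, mice with at least 10 members, and 2 further restrictions of the barcodes were chosen after seeing the data. CPM are counts per 1000000 gene UMIs of the summed cells. Some genes of the lists are counted but not reported by name here.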

Additional observations from a re-analysis of the deposited data

Results flagged for a closer look

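In 117 groups of 4 to 10 mice, the highest or lowest mouse stood apart from the rest by Dixon's criterion in 13, and chance gives about 1 in 20 groups. Of these, 7 were in mouse 2 of control isotype pool 1, which had exactly 20 members: AY036118 at 438 CPM, Ccr2 at 386 CPM, the chemokine Cxcl9 at 1320 CPM, E030030I06Rik at 0 CPM, Lrrk2 at 17.5 CPM, Pet100 at 43.8 CPM and Smim27 at 26.3 CPM. In mouse 2 of control isotype pool 2, Carmil1 was apart at 16.5 CPM and Mgl2, a C-type lectin of macrophages, at 36.2 CPM. Among B2m-null tumours with anti-CD40, mouse 2 of pool 1 stood apart for Lrrk2 at 36.6 CPM and Upp1 at 240 CPM, and mouse 1 of pool 1 for the transcription factor Maf at 221 CPM and Smim27 at 18.7 CPM.

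For 10 of the genes described, the anti-CD40 effect differed between B2m-null and control tumours by the test of the difference itself (log2, B2m-null minus control). More positive in B2m-null tumours were Isg15 (1.85), Isg20 (3.0), Oasl1 (1.56), Ms4a4c (2.32) and Slfn4 (2.85). More negative were Clcn5 (-1.49), Hcst (-1.63), Pet100 (-1.95), Rpl38 (-1.4) and Wfdc17 (-2.3). Pet100 and Rpl38 are a mitochondrial assembly factor and a ribosomal protein gene. These calls were lost in some alternatives, in 17 for Clcn5, 16 for Wfdc17, 11 for Oasl1, 9 for Hcst, 6 for Isg15, 5 for Ms4a4c, 3 for Isg20, 2 for Pet100 and 1 each for Rpl38 and Slfn4, the omission of single mice included. With pools as the unit, 3 genes in all passed this test.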

How the results depend on the processing

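Of 4191 alternative values for single genes none changed sign where it was called (some that were not called did), 3663 kept the side of the threshold, 449 lost the call and 79 gained it. The balance of higher and lower calls did turn over in several comparisons: from 414 and 239 to 258 and 504 with total UMIs for anti-CD40 in control tumours, from 13 and 2 to 1 and 7 with pools as the unit for tumour type under isotype antibody, and from 13 and 43 to 152 and 69 without a low-count filter for the difference of effects. With that filter off it also turned for tumour type, to 91 and 142 under isotype antibody and 271 and 219 under anti-CD40. Thinning turned it within members by C1q (370 and 376), and where the counts were near equal it turned under further settings. Thinning cells to 2000 UMIs also left fewer genes to test. It gave 2888 calls of 11163 genes tested against Nos2-free barcodes (13126 tested at full depth) and 2553 of 6850 against the monocyte gate (10337). It gave 3116 of 10628 against C1q-rich macrophages (12894) and 746 of 5199 within members by C1q (9523). Of 5308 genes (8835) it called 371 for anti-CD40 in control and 127 in B2m-null tumours, 1 for tumour type under isotype antibody and 33 for the difference of effects. Without a low-count filter the calls were 623 (anti-CD40 in B2m-null tumours), 233 (tumour type under isotype antibody), 490 (tumour type under anti-CD40) and 221 (difference of effects). DESeq2 gave 67, 314 and 118 for the last 3 of these. Pools as the unit gave 249 for anti-CD40 in control tumours and 8, 20 and 3 for the last 3. With at least 3 Nos2 UMIs the calls were 192 for anti-CD40 in B2m-null tumours and 36 for the difference, and with mice of at least 10 members, chosen after seeing the data, 605 for anti-CD40 in B2m-null tumours. The cause was not tested.

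Leaving out 1 pool, lane or mouse gave 3684 to 4551 calls against Nos2-free barcodes, 3392 to 4143 against the monocyte gate, 4072 to 4911 against C1q-rich macrophages and 808 to 1276 within members by C1q. It gave 203 to 684 for anti-CD40 in control tumours, 35 to 386 in B2m-null tumours, 2 to 26 and 0 to 340 for tumour type under isotype antibody and anti-CD40, and 21 to 101 for the difference. The share differences ranged from 6.18 to 10.5 and from 13.2 to 18.5 points for anti-CD40, and from -2.85 to -1.27 and 2.87 to 8.16 points for tumour type. The omission of B2m-null isotype pool 2 could not be fitted in the gene tests over mice, since it held both mice of that group with at least 20 members.

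Members and Nos2-free barcodes came from the same pools, and with no replicate block that comparison gave 2014 calls, without Ass1, Upp1, Ly6i, Cfb and Cd163. Between groups the pool numbers share only a number: the deviations of same-numbered pools correlated at -0.0497, 0.0947 and -0.0425. With a replicate block on them, anti-CD40 in B2m-null tumours gave 245 calls, tumour type under isotype antibody 2, and the shares differed by 16.1 points (exact permutation, adjusted p = 0.133) and -2.03 points (adjusted p = 0.2). The comparisons between groups rest on 2 control anti-CD40 mice from 1 pool and 2 B2m-null isotype mice from 1 lane. At the lower depth of thinned cells fewer genes were tested and fewer called in the 8 comparisons named above, so these counts have unlike bases. Tumour type under anti-CD40 gave 207 calls with thinned cells in place of 190.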

Other observations

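Against C1q-rich macrophages without Nos2, where 18.9% of all genes tested rose and 19.6% fell, further lists were counted. Of 17 oxidative burst and antimicrobial genes 11 rose and 1 fell (Rac2), with a median log2 difference of 0.564 against -0.0161 over all genes tested, and the 11 included the glutathione and thioredoxin genes Slc7a11, Gclm, Srxn1 and Txnrd1. Neutrophil markers moved with them: 3 of 9 rose (Il1r2, Hdc and S100a8, median 0.714) and 5 of 8 with thinned cells, and the 11 also held Lcn2, a granule protein of neutrophils. Their part in these counts was not tested. Against the monocyte gate 6 genes of the antimicrobial list were higher and 8 lower. Of 32 NF-kB and inflammatory genes 22 rose and none fell. Of 10 MHC class II genes 4 rose (H2-Oa, H2-Ab1, H2-Aa and Cd74), or 2 with thinned cells, and of 17 classical monocyte genes 10 rose, among them Chil3 and Vcan, and 1 fell, F13a1. C1q-low cells stood on the members' side only in this comparison. Among the members they were higher than C1q-high cells in 14 of 17 monocyte and 18 of 29 NF-kB genes, and their part in these counts was not tested. Of 19 genes of the tricarboxylic acid cycle list 7 fell and only Acod1, not an enzyme of the cycle itself, rose. Of 25 resident macrophage genes 15 fell and 4 rose. Under total UMIs, chosen after seeing the data, the median gene shifted by 0.14 in this comparison, so the small differences are to be read relative to that.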
